A study of Mus musculus with 6 samples.

Results

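Of the 24410 gene symbols with a value in the deposited table, 35 genes of autophagy, mitophagy and the lysosome were taken by symbol, and all 35 were present. They cover 10 roles, from the kinases that start autophagy to the proteases of the lysosome. The RNA came from CD41+ cells grown from the bone marrow of C57BL/6 mice, with 3 libraries of wild-type (WT) and 3 of Txnip-/- animals (KO), all 5 months of age per the labels and numbered 1 to 3 in each genotype. Txnip encodes the thioredoxin-interacting protein, which binds and inhibits the antioxidant protein thioredoxin. Marrow cells without lineage markers were kept for 3 days in SFEMII, an expansion medium to which fetal bovine serum was added, with 100 ng/mL mouse stem cell factor and 20 ng/mL mouse thrombopoietin, and CD41+ cells were then sorted. CD41, the integrin subunit that marks the megakaryocyte lineage, selects a culture-derived population, so the libraries describe cells after expansion and not marrow in place. The labels do not say whether libraries of a genotype came from separate mice, how the Txnip allele was made, or what a replicate number stands for. The question here is what the loss of Txnip changes in the transcripts of the self-digestion machinery.

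In autophagy, a double membrane closes around cytoplasm and fuses with the lysosome, where acid proteases and lipases break the content down. A kinase complex around Ulk1 starts the process, a lipid kinase complex around Becn1 marks the membrane, and conjugation enzymes attach the ubiquitin-like proteins of the LC3 and GABARAP families to it. Cargo receptors such as Sqstm1 tie marked material to these proteins, and Pink1 and Bnip3l direct damaged or surplus mitochondria into the pathway. Autophagy is known to take part in the maturation of megakaryocytes and in the removal of mitochondria from maturing red cells.

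Levels are in FPKM, fragments counted per length of transcript and per depth of the library, so genes can be set side by side. FPKM sums ran from 715205 (KO 3) to 1131641 (WT 2), where the noncoding RNAs Rpph1 and Rmrp took 30.4% of the sum, against 10.7% to 20.6% elsewhere. The table does not state depth. The spacing of its lowest values gave about 14400000 (KO 1) to 25800000 (KO 3) fragments, for an assumed fragment length of 200 bases. Txnip itself had 112, 228 and 143 FPKM in the WT libraries against 0.00, 0.04 and 0.00 in the KO libraries, a difference of −7.26 on the log2(FPKM + 1) scale (SE 0.28; limma, adjusted p = 2.02e-05), so the libraries match their genotypes. Itga2b, which encodes CD41, was at 83.2, 111 and 110 FPKM in WT and at 92.8, 152 and 109 in KO. Summed over 16 megakaryocyte markers the level was 1049 to 2168 FPKM in WT and 1230 to 2323 in KO, with Pf4, platelet factor 4, between 465 and 1545 FPKM. Markers of other myeloid cells were abundant as well, so the sorted cells were not of the megakaryocyte lineage alone by these sums. The 24 monocyte and macrophage markers summed to 1339 to 2504 FPKM in WT and 1764 to 2814 in KO, and the 17 neutrophil and granulocyte precursor markers to 6228 to 7889 and 4130 to 9433. The 15 mast cell and basophil markers summed to 1140 to 1737 and 710 to 1591 FPKM, and the 19 erythroid markers to 287 to 468 and 246 to 379, with 6 of the 19 under 1 FPKM in every library. Of 12 lymphoid markers 9, and of 11 endothelial and stromal markers 7, were under 1 FPKM in every library. In RNA from a bulk of sorted cells, fewer cells of a type and less RNA per cell cannot be told apart.

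None of the 35 genes passed the test for a difference between the genotypes. The adjusted p was 1 for each of them (limma on log2(FPKM + 1), Benjamini-Hochberg adjustment over 11249 genes), while 0.0178% of all tested genes passed: Txnip and Cd1d2, a lipid-presenting CD1d-type molecule that lies outside the pathway. With the replicate number as a block in the fit, again 0 of 35 passed, against 0.0267% of tested genes. At an unadjusted p under 0.05 there was 1 member, Ctsl, a share of 2.86% against 0.676% of all genes. With the block there were 4, Ctsl, Optn, Atg16l1 and Tfeb, or 11.4% against 6.93%. If no gene differed, 5% of tested genes would be expected under that limit, provided that a fit's error matches the spread of the samples. Libraries of the same number varied together, and the fit without the block counts that shared spread as error. This lowers its share, so the 0.676% cannot be read against 5%. Uvrag and Atg16l1, 2 of the 35, had every KO library higher than every WT library, and 0 members had the reverse. This is 5.71%, against 4.35% of tested genes that did not overlap in either direction. These shares rest on 1, 4 and 2 genes, so that 1 gene more or less moves each by 2.86 percentage points.

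Values were higher in KO for 28 members and lower for 7, with a median difference of 0.045 on the log2(FPKM + 1) scale. Over all tested genes 63.4% were higher, a smaller share than the 80% of the members, and the median was 0.061. By the median the members lay where most genes lay, and 16 of the 35 exceeded the median of all tested genes. The split depended on scaling: it was 33 higher and 2 lower with libraries brought to a common FPKM sum, where the median of all tested genes was 0.22, and 21 higher and 14 lower after quantile normalization, where it was 0.0077. The difference was under 0.25 in size for 28 of 35 members (80%) and for 77.3% of all tested genes. The 95% intervals, from the fit without the block, were wide in comparison, with a median half-width of 0.58. For 31 members the whole interval stayed within 1 log2 unit of 0. With libraries that bear 1 number taken as a pair, the median member difference was 0.071, 0.22 and 0.064 in pairs 1 to 3, where all genes had 0.039, 0.091 and 0.051. In 9 members all 3 pairs were higher in KO (25.7%, against 20.4% of all genes): Becn1, Uvrag, Wipi1, Atg7, Atg16l1, Optn, Tfeb, Ctsb and Ctsl. Gabarap alone was lower in all 3 pairs (2.86% of members, against 8.68% of all genes). Immediate early genes, which respond to handling and to growth signals, also had higher values in KO, 19 of 20 tested, with a median difference of 0.29. They summed to 674, 437 and 392 FPKM in WT and to 1040, 509 and 411 in KO, and 5 (25%) had an unadjusted p under 0.05 with the block while 0 passed. Their part in the members' values was not tested.

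**Figure D1:**
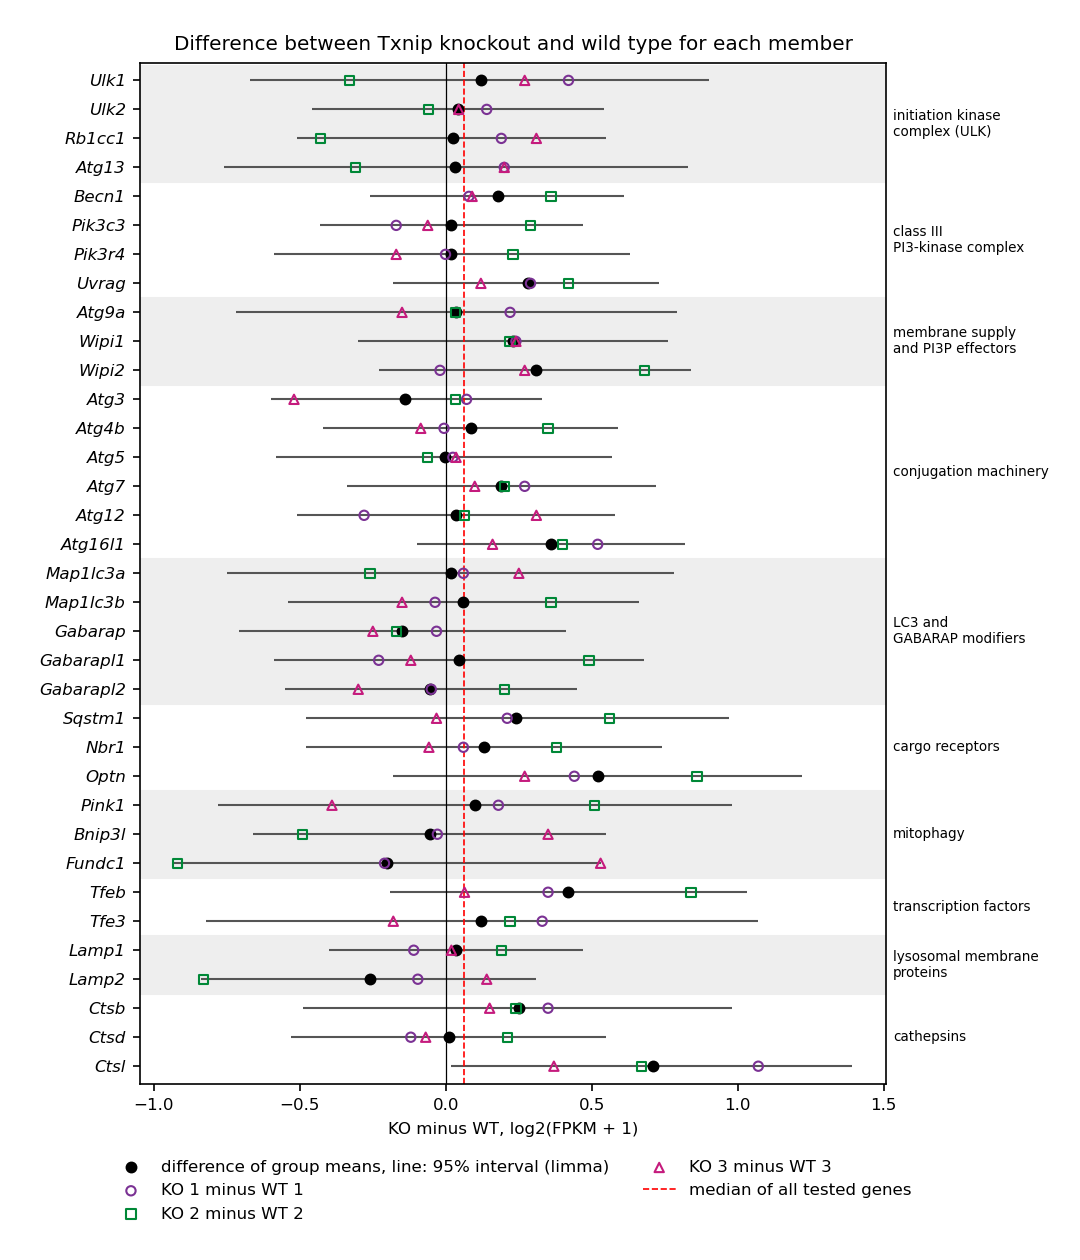
Difference between KO and WT for each of the 35 members, in log2(FPKM + 1), by role. Filled points are differences of group means (n = 3 libraries each), lines their 95% intervals from limma, open symbols the 3 pairs, and the dashed line the median of all tested genes, 0.061. The intervals are from the fit without the block. Apart from that of Ctsl, every interval includes 0. With the block, for which no intervals are drawn, Optn, Atg16l1 and Tfeb also had an unadjusted p under 0.05 (limma), and 0 of the 35 passed.

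Ctsd, the main aspartic protease of the lysosome, was the most abundant, at percentile 97.2 of all tested genes, followed by Lamp1 (percentile 96.0), Sqstm1 (94.8), Gabarap (94.2) and Lamp2 (91.9). The products of these 5 genes are the protease, the coat proteins of the lysosomal membrane, a cargo receptor and a membrane-bound modifier. At the other end were Map1lc3a (percentile 16.5), Ulk1 (26.0), Tfeb (28.6) and Atg13 (30.8), a modifier, a pair of initiation genes and a transcription factor. The 4 initiation genes lay between 4.04 FPKM (Ulk1 in KO 2) and 18.8 FPKM (Rb1cc1 in KO 1).

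**Figure D2:**
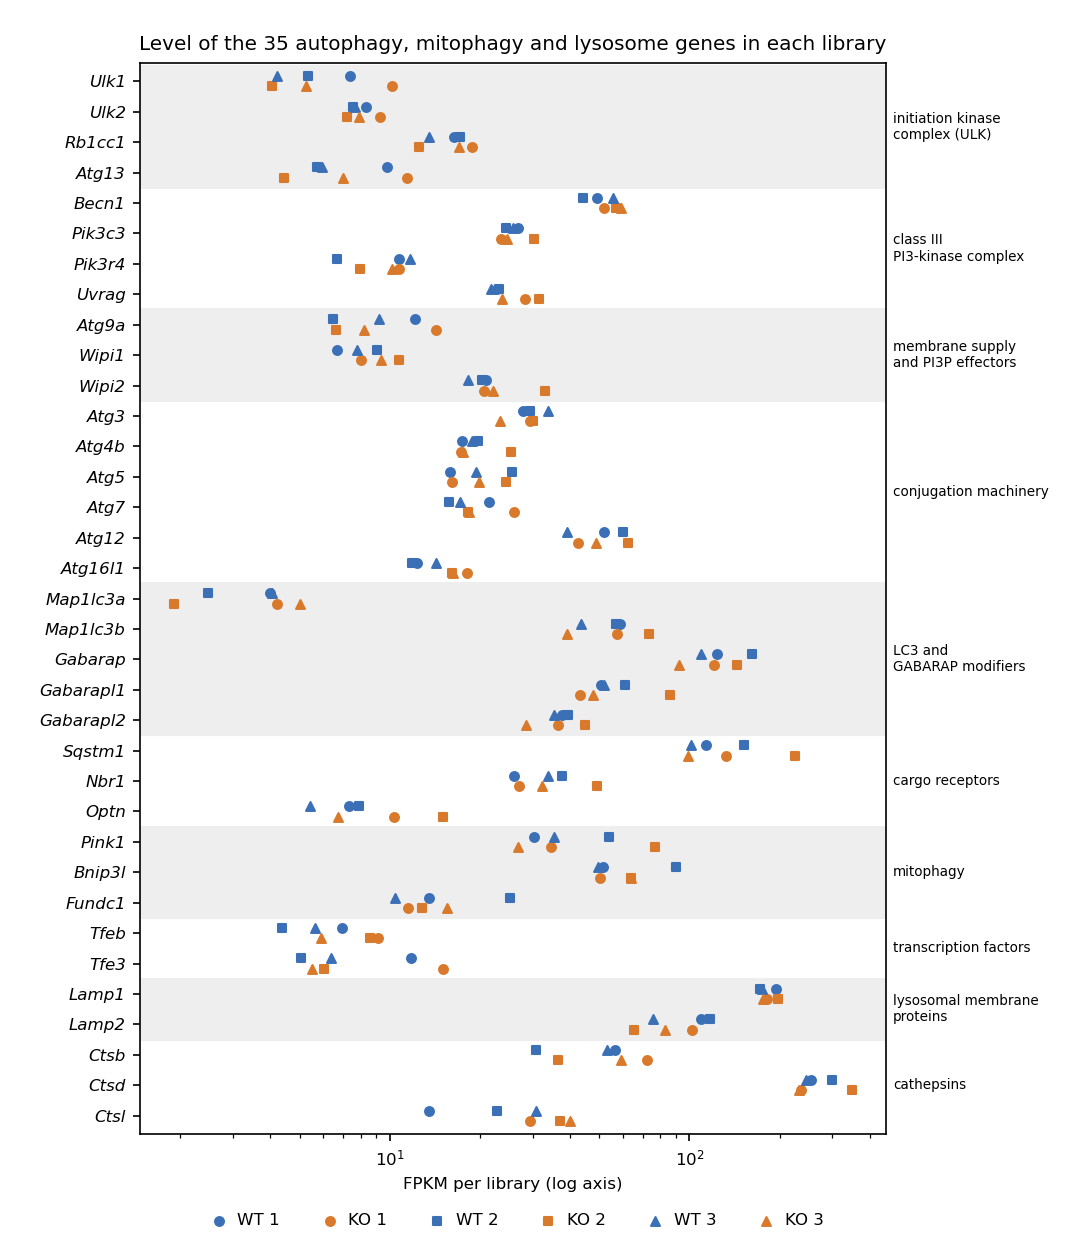
FPKM of each member in each of the 6 libraries on a log axis, grouped by role, with WT in blue and KO in orange and a symbol for each replicate number. Levels run from 1.91 FPKM (Map1lc3a in KO 2) to 348 FPKM (Ctsd in KO 2), and WT and KO symbols overlap in 33 of the 35 rows.

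Tfeb and Tfe3 are the transcription factors that switch on lysosomal and autophagy genes when they enter the nucleus. Tfeb was at 6.94, 4.37 and 5.61 FPKM in WT and at 9.15, 8.62 and 5.91 in KO, each in the order of the replicate numbers. The KO libraries 1 and 2 lay above every WT library, and KO 3 lay within the WT range. The difference was 0.42 (SE 0.27; 95% interval −0.19 to 1.03; limma, adjusted p = 1, and adjusted p = 0.717 with the block). Tfe3 was at 11.8, 5.05 and 6.36 FPKM in WT and at 15.1, 6.04 and 5.49 in KO. It was highest in library 1 of both genotypes, and the groups overlapped throughout, with a difference of 0.12 (95% interval −0.82 to 1.07). RNA levels do not show whether these factors, which are controlled by phosphorylation, were in the nucleus.

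The binding element of Tfeb and Tfe3 has the core CACGTG, extended in the known lysosomal element to TCACGTG, TCACGTGA, or that run with a further G before and C after it. Windows of 300 bases, from 250 before to 50 after a start site, were searched on both strands in the RefSeq promoter table (GRCm38.p6); the longer motifs contain the shorter ones. The table matched 27 of the 35 members, with 31 windows; without an entry were Rb1cc1, Becn1, Pik3c3, Atg12, Atg16l1, Map1lc3a, Bnip3l and Ctsb. CACGTG stood in 6 member windows, those of Atg3, Atg5, Atg7, Ctsd, Ctsl and Lamp1 (19.4%, against 7.15% of all 32851 windows). TCACGTG was in 4 windows, of Atg3, Atg7, Ctsd and Lamp1 (12.9% against 3.77%). TCACGTGA was in 2, of Atg3 and Ctsd (6.45% against 0.974%), and the longest form in 0, against 0.326% of all windows. The 32851 windows were not limited to tested genes, whereas all 35 members were tested, so these shares are not matched for expression. A match describes letters and not a bound site. The 250 bases before the start site are shown for Lamp1 and Ctsd, the most abundant members with the motif, and for Atg3, because they hold more than 1 copy each. Capitals mark CACGTG with the T before or the A after it, the latter being the same motif read on the other strand.
Lamp1 (chr8:13158911-13159160, plus strand): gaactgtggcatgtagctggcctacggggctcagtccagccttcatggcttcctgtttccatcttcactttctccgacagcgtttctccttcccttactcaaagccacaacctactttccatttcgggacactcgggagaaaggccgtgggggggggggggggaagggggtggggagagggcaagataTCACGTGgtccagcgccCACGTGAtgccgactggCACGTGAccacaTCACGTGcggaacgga
Ctsd (chr7:142387828-142388077, minus strand): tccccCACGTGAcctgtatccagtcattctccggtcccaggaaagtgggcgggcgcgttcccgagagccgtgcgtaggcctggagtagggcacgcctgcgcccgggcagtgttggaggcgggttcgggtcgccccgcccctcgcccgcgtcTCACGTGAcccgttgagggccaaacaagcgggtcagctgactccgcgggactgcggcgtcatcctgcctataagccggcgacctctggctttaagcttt
Atg3 (chr16:45158579-45158828, plus strand): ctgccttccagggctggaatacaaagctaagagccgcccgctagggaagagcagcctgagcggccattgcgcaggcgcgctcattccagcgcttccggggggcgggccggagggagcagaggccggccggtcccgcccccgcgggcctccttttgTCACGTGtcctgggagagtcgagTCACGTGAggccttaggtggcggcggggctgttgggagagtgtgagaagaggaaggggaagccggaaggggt
The Lamp1 window held 4 copies of CACGTG and the Ctsd and Atg3 windows 2 each. None of these 3 genes passed the test, and their differences were 0.035 for Lamp1, 0.0094 for Ctsd and −0.14 for Atg3 on the log2(FPKM + 1) scale.

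The initiation complex joins the kinases Ulk1 and Ulk2 to the scaffold Rb1cc1 (also called FIP200) and the adaptor Atg13. All 4 genes differed by 0.12 or less between the genotypes. Rb1cc1 was at 16.4, 17.1 and 13.5 FPKM in WT and at 18.8, 12.5 and 17.0 in KO. Ulk2 was at 8.33, 7.53 and 7.65 FPKM in WT and at 9.31, 7.18 and 7.92 in KO. The pairs did not point 1 way: each of the 4 genes was higher in KO in pairs 1 and 3 and lower in pair 2, where Rb1cc1 differed by −0.43 and Ulk1 by −0.33. Ulk1 and Atg13 were highest in library 1 of both genotypes, at 7.36 and 10.2 FPKM for Ulk1 and at 9.82 and 11.4 for Atg13 in WT 1 and KO 1.

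The class III lipid kinase complex makes the phosphoinositide that marks the growing membrane, with Pik3c3 as its catalytic subunit, Pik3r4 as its regulatory subunit, and Becn1 and Uvrag as partners. Becn1 was at 49.0, 44.2 and 55.4 FPKM in WT and at 51.9, 57.1 and 59.0 in KO. Higher in KO in all 3 pairs, its groups still overlapped, and the difference was 0.18 (95% interval −0.26 to 0.61). Pik3c3 was at 26.7, 24.5 and 25.8 FPKM in WT and at 23.6, 30.2 and 24.7 in KO, with the KO libraries on both sides of the WT ones. Pik3r4 was alike in mean, at 9.67 ± 2.65 FPKM in WT against 9.63 ± 1.44 in KO (SD over n = 3 libraries), with library 2 lowest in both genotypes. Uvrag, which steers the complex toward endosomes and late autophagosomes, was at 22.8, 23.2 and 21.8 FPKM in WT and at 28.2, 31.4 and 23.7 in KO. The 3 WT libraries lay close together and the 3 KO libraries all above them, which no longer held after quantile normalization. The difference for Uvrag was 0.28 (SE 0.20; 95% interval −0.18 to 0.73; limma, adjusted p = 1, and adjusted p = 0.763 with the block).

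Atg9a brings membrane vesicles to the growing autophagosome, and Wipi1 and Wipi2 bind the phosphoinositide there. Wipi2 was at 20.9, 20.3 and 18.2 FPKM in WT and at 20.6, 33.0 and 22.1 in KO. Its KO mean of 25.2 ± 6.80 FPKM (SD over n = 3 libraries) against 19.8 ± 1.40 in WT had KO 2 far above the other libraries, and pair 1 differed by −0.02. Atg9a was at 12.1, 6.45 and 9.20 FPKM in WT and at 14.3, 6.62 and 8.18 in KO, with library 1 highest in both genotypes, and 30.2% of its stretches of 50 bases also occur in other annotated genes. Wipi1 differed by 0.24, 0.22 and 0.24 in pairs 1 to 3, the closest agreement among the pairs of any member that was higher in all 3. Its groups overlapped all the same (7.83 ± 1.21 FPKM in WT against 9.35 ± 1.35 in KO, SD over n = 3 libraries; limma, adjusted p = 1, and adjusted p = 0.806 with the block).

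The conjugation machinery works as a relay: Atg7 activates, Atg3 transfers, Atg4b trims the modifiers, and Atg12, Atg5 and Atg16l1 form the complex that fixes them to the membrane. Atg16l1, which places that complex on the membrane, had groups that did not overlap. It was at 12.3, 11.9 and 14.3 FPKM in WT and at 18.1, 16.1 and 16.2 in KO, and the lowest KO library lay above the highest WT library. The difference was 0.36 (SE 0.20; 95% interval −0.10 to 0.82; limma, adjusted p = 1, and adjusted p = 0.69 with the block). Its partners in the complex did not share that pattern. Atg12, the most abundant of the 6, was at 51.8, 59.8 and 39.1 FPKM in WT and at 42.6, 62.5 and 48.9 in KO, a difference of 0.034. Atg5 had a difference of −0.0012, with 20.3 ± 4.91 FPKM in WT against 20.2 ± 4.16 in KO (SD over n = 3 libraries). Atg3 was at 27.8, 29.4 and 33.7 FPKM in WT and at 29.3, 30.1 and 23.3 in KO. Its pairs differed by 0.071, 0.034 and −0.52. Atg7 was 18.1 ± 2.90 and 20.9 ± 4.43 FPKM, and Atg4b 18.6 ± 1.15 and 20.1 ± 4.52 (SD over n = 3 libraries).

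The LC3 and GABARAP proteins are the modifiers that end up on the membrane, and Gabarap made up the largest share of their transcripts. It was at 124, 162 and 109 FPKM in WT and at 121, 144 and 92.0 in KO, which was 44.8% to 50.4% of the sum of the 5 genes in WT and 41.0% to 46.2% in KO. Lower in KO in each pair, it differed by −0.15 (SE 0.25; limma, adjusted p = 1), a sign that turned with a common FPKM sum (0.026), and its groups overlapped. Gabarapl1 was at 50.8, 61.1 and 52.0 FPKM in WT and at 43.0, 86.2 and 47.7 in KO, where KO 2 alone stood above all WT libraries. Map1lc3b, whose product is the common marker of autophagosomes, took 17.7% to 21.4% of the sum in WT and 18.4% to 21.9% in KO. Its paralog Map1lc3a took 0.545% to 2.37% over the 6 libraries and was the scarcest member, at 3.51 ± 0.89 FPKM in WT against 3.71 ± 1.61 in KO (SD over n = 3 libraries). Gabarapl2 took 12.2% to 14.5% of the sum in all libraries. The 5 genes shared 0 stretches of 50 bases between their GENCODE M21 transcripts, so reads of that length that match exactly would not be split between them. How many mismatches the alignment allowed is not stated. Outside the family, 12.2% of such stretches of Gabarapl2 and 5.77% of Map1lc3b also occurred in other genes, led by predicted genes named only by number.

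Cargo receptors bind ubiquitin-marked material and the modifiers at once. Sqstm1 (p62) was at 114, 152 and 101 FPKM in WT and at 132, 225 and 99.2 in KO. Nbr1 was at 25.9, 37.5 and 33.7 FPKM in WT and at 27.0, 49.1 and 32.3 in KO. Both were highest in library 2 of both genotypes and differed little in pair 3, by −0.032 and −0.058. Optn, a receptor for marked mitochondria and bacteria, was at 7.32, 7.89 and 5.42 FPKM in WT and at 10.3, 15.1 and 6.74 in KO. KO 1 and KO 2 exceeded every WT library and KO 3 did not. Its difference of 0.52 (SE 0.31; 95% interval −0.18 to 1.22; limma, adjusted p = 1, and adjusted p = 0.683 with the block) was the second in size among the members. Without KO 2 the Optn difference was 0.26, and without KO 3 it was 0.79.

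Mitophagy genes were spread among the libraries without order by genotype. Pink1, the kinase that flags damaged mitochondria, was at 30.3, 53.7 and 35.4 FPKM in WT and at 34.4, 76.7 and 26.8 in KO. Bnip3l (NIX), the receptor used when maturing red cells shed mitochondria, was at 51.4, 89.9 and 49.6 FPKM in WT and at 50.3, 63.9 and 63.7 in KO. Pink1 had its highest level in library 2 of both genotypes, and for Bnip3l WT 2 stood above all others. Of the stretches of 50 bases in Bnip3l transcripts 20.8% also occur in the pseudogene Bnip3l-ps, so the level of Bnip3l can depend on how reads were shared. Whether the annotation behind the deposited values held that pseudogene is not stated. Fundc1, a receptor of the outer mitochondrial membrane, was 16.3 ± 7.74 FPKM in WT against 13.3 ± 2.02 in KO (SD over n = 3 libraries). Among the Fundc1 values WT 2 stood alone at 25.1 FPKM, and its pairs differed by −0.21, −0.92 and 0.53. Bnip3l also had pairs of both signs, at −0.029, −0.49 and 0.35. The 19 erythroid markers, of which Hba-a2 was at 0 in every library, summed highest in the libraries with number 2, at 468 FPKM in WT 2 and 379 in KO 2. A large part of these sums came from Car2 and Tfrc, the most abundant of the markers. Car2 was at 139 FPKM in WT 2 and 164 in KO 2, and Tfrc at 88.8 and 50.9. Of 12 tested erythroid markers 2 had higher values in KO and 10 lower, or 16.7% higher against 63.4% of all tested genes. Their median difference was −0.24. Of the 12, 0 passed, and 2 had an unadjusted p under 0.05 with the block (16.7%, against 6.93% of all tested genes). Their part in these levels was not tested.

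Lamp1 and Lamp2 coat the inner face of the lysosomal membrane. Lamp1 was among the steadiest members, at 195, 172 and 174 FPKM in WT and at 181, 197 and 176 in KO, a difference of 0.035 (95% interval −0.40 to 0.47). Lamp2 was at 109, 117 and 75.3 FPKM in WT and at 102, 65.4 and 82.8 in KO. The Lamp2 difference of −0.26, the most negative among the members (SE 0.25; limma, adjusted p = 1), combined pairs of −0.096, −0.83 and 0.14.

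The cathepsins digest what reaches the lysosome, Ctsd as an aspartic protease and Ctsb and Ctsl as cysteine proteases. Ctsl had the largest difference of the 35 genes, with 22.4 ± 8.64 FPKM in WT against 35.5 ± 5.49 in KO (SD over n = 3 libraries). In number order, it was at 13.5, 22.8 and 30.8 FPKM in WT and at 29.4, 37.0 and 40.1 in KO. The groups overlapped, since WT 3 lay above KO 1, but each KO library exceeded the WT library of its number. The difference was 0.71 (SE 0.30; 95% interval 0.019 to 1.39; limma, adjusted p = 1), with pairs at 1.07, 0.67 and 0.37. With the block the adjusted p was 0.505. Without WT 1, the lowest library, the Ctsl difference was 0.40, and without WT 3 it was 0.96. Ctsd was at 255, 300 and 244 FPKM in WT and at 235, 348 and 232 in KO, a difference of 0.0094 (95% interval −0.53 to 0.55). Ctsb was at 56.4, 30.7 and 53.2 FPKM in WT and at 72.4, 36.4 and 59.0 in KO, higher in each pair, by 0.35, 0.24 and 0.15, with library 2 lowest in both genotypes.

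A ratio of a pair of genes within a library does not change when a library is scaled by a single factor, and it was added after these values were seen. The level of Ctsl was 5.29%, 7.60% and 12.6% of that of Ctsd in WT, and 12.5%, 10.6% and 17.3% in KO. Each KO library was above the WT library of its number, and the groups overlapped because WT 3 lay above KO 1 and KO 2. Of the 50-base stretches of Ctsl 6.46%, and of Ctsd 32.4%, also occur in another annotated gene. The monocyte and macrophage markers, a lineage rich in lysosomes, summed to 1339, 1777 and 2504 FPKM in WT and to 2814, 1764 and 2329 in KO. Of 23 tested monocyte and macrophage markers 22 had higher values in KO, or 95.7% against 63.4% of all tested genes, with pair medians of 0.99, 0.21 and −0.01. Ctss and Cd68 are among these markers and also among the other lysosomal genes described below. Of the 23, 0 passed, and 7 had an unadjusted p under 0.05 with the block (30.4%, against 6.93% of all tested genes). Of tested mast cell and basophil markers 10 of 12, and of neutrophil and granulocyte precursor markers 10 of 15, had lower values in KO. The part of any of these markers in the cathepsin values and in those of the other members was not tested.

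**Figure D3:**
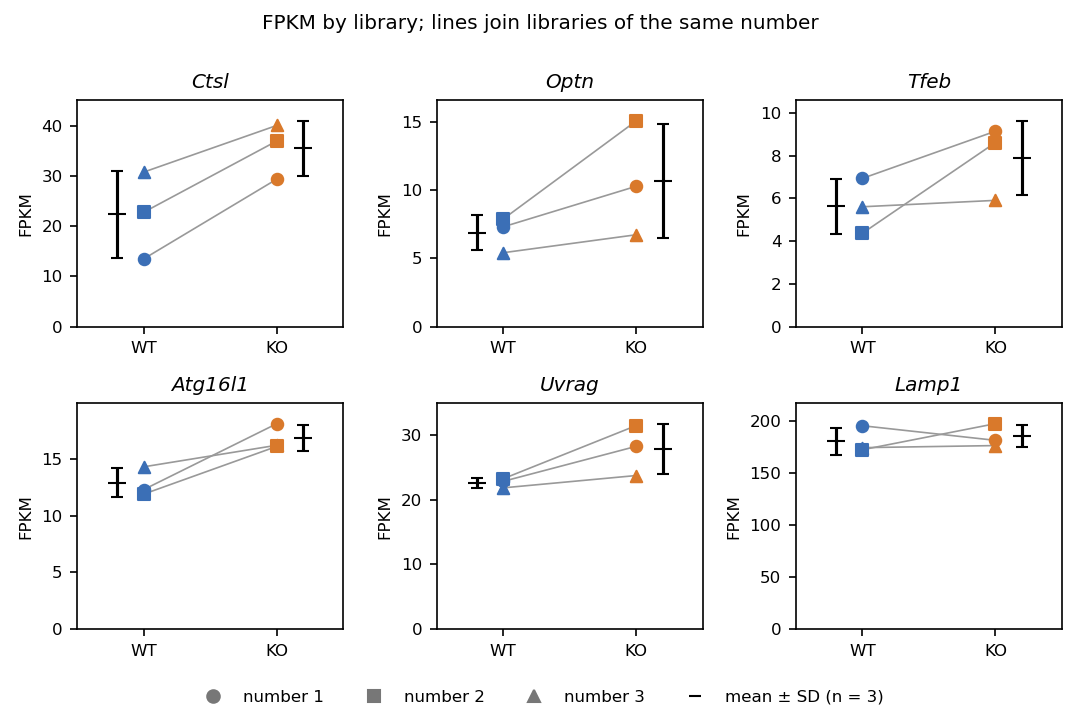
FPKM of 6 members by library, with lines joining libraries of the same number and bars for the mean ± SD (n = 3). The axes start at 0. Ctsl is higher in KO in each pair, Optn and Tfeb have KO 3 within the WT range, Atg16l1 and Uvrag have all KO libraries above all WT libraries, and Lamp1 lies between 172 and 197 FPKM in all 6.

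In 25 members (71.4%, against 65.0% of all tested genes) the same replicate number was highest in both genotypes. For 8 of these it was number 1: Ulk1, Ulk2, Atg13, Atg7, Atg9a, Ctsb, Tfeb and Tfe3. Number 2 was highest for 14, namely Gabarap, Gabarapl1, Gabarapl2, Sqstm1, Nbr1, Optn, Pink1, Bnip3l, Atg12, Atg4b, Atg5, Wipi1, Uvrag and Ctsd, and number 3 for Becn1, Map1lc3a and Ctsl. Over all tested genes the order of the numbers was another, with 4327 genes highest in number 1, 2008 in number 2 and 982 in number 3. Libraries with number 3 had no Y-linked transcripts, with Ddx3y, Eif2s3y, Kdm5d and Uty at 0.00 FPKM, and held Xist instead, so number 3 and the sex of the animals cannot be told apart. Ribosomal protein genes took 22.8% and 28.2% of the FPKM sum in WT 2 and KO 2, against 17.4% and 14.5% in WT 1 and KO 1 and 23.5% and 20.0% in WT 3 and KO 3. The part of these shares in the members' levels was not tested.

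**Figure D4:**
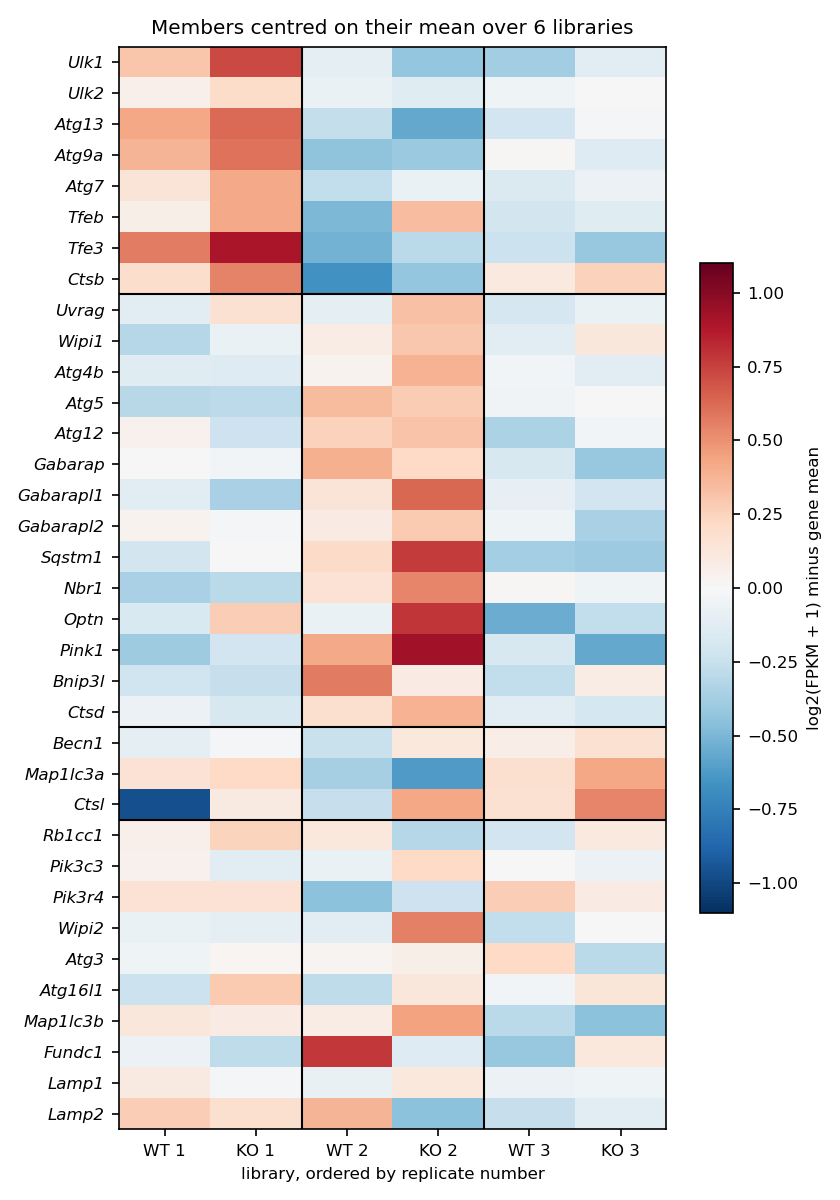
Each member's log2(FPKM + 1) minus its mean over 6 libraries, with libraries ordered by replicate number. Horizontal lines part the members highest in number 1 (8 genes), number 2 (14) and number 3 (3) of both genotypes from the remaining 10. Pink1 and Sqstm1 are high in both columns of number 2, Tfe3 and Ulk1 in both of number 1.

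Other genes of the pathway gave the same outcome in the test. Over 7 further lists, 151 of 154 genes in the table were tested, of which 0 passed; 0 had an unadjusted p under 0.05, and 6 did with the block (3.97%, against 6.93% of all tested genes). Values were higher in KO for 113 (74.8%, against 63.4% of all tested genes) and lower for 38, with a median difference of 0.088. With a common FPKM sum 139 were higher, and after quantile normalization 95. By list, the share higher in KO ran from 58.8% for V-ATPase subunits to 91.7% for other transcription regulators of autophagy. In 5 of the 151 the groups did not overlap (3.31%, against 4.35% of all tested genes): Atg2b, Igf2r and the fucosidase gene Fuca1 with KO above WT, and Atp6v0e and Lamtor5 with KO below. Fuca1 was named after its values were seen. The 21 other genes of the autophagy machinery had a median of 0.17, with 17 higher and 4 lower. Among them Atg2b, a lipid transfer protein of the growing membrane, was at 16.1, 11.2 and 13.2 FPKM in WT and at 18.4, 16.5 and 16.5 in KO, all KO libraries above all WT libraries (difference 0.33, SE 0.22). Atg16l2, the paralog of Atg16l1, was 3.51 ± 0.43 FPKM in WT against 5.31 ± 1.53 in KO (SD over n = 3 libraries), and Zfyve1, a marker of sites where autophagosomes form, 9.45 ± 0.54 and 12.0 ± 3.16. With the block both Atg2b and Atg16l2 had an adjusted p of 0.717 (limma).

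Of 24 other cargo and mitophagy genes 15 were higher and 9 lower (median 0.054). Tomm7, a subunit of the import channel that holds Pink1 on mitochondria, was 106 ± 33.8 FPKM in WT against 83.2 ± 13.7 in KO (SD over n = 3 libraries). The mitochondrial ubiquitin ligase gene Mul1 was 5.87 ± 1.25 and 7.17 ± 0.61, and the mitochondrial fusion gene Mfn2 16.2 ± 5.24 and 18.9 ± 4.39. Genes for fusion with the lysosome had 11 higher and 2 lower values (median 0.12). The SNARE protein gene Vamp8 went the other way, at 172, 263 and 204 FPKM in WT and at 146, 186 and 162 in KO, lower in each pair (difference −0.35, SE 0.23; limma, adjusted p = 1, and adjusted p = 0.69 with the block). The tethering genes Vps11 and Vps39 differed by 0.22 and 0.16.

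The V-ATPase acidifies the lysosome, and its 17 subunit genes split into 10 higher and 7 lower (median 0.028). Atp6v0e was at 100, 160 and 101 FPKM in WT and at 88.4, 95.4 and 90.9 in KO, all KO libraries below all WT libraries (difference −0.36, SE 0.23; limma, adjusted p = 1). Tcirg1 and Atp6v1a, subunits of the membrane and the catalytic part, differed by 0.29 and 0.19. Of 38 other lysosomal hydrolases and their activators 31 were higher and 7 lower (median 0.12). Psap, the precursor of lipid-degrading activators, was at 332, 265 and 426 FPKM in WT and at 606, 377 and 417 in KO. KO 1 stood above all other libraries, and pair 3 differed by −0.032. Lgmn, named after its values were seen, had the largest difference of the 151 genes, 0.57 (SE 0.53). Its pairs were at 1.05, 0.72 and −0.056. With the block Psap had an adjusted p of 0.69 and Lgmn of 0.683 (limma). The acid phosphatase gene Acp5 was 1.37 ± 0.365 FPKM in WT against 2.33 ± 0.842 in KO, and the sialidase gene Neu1 13.3 ± 2.05 and 16.3 ± 3.09 (SD over n = 3 libraries).

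Of 26 genes of the lysosomal membrane and of transport to it, 18 were higher and 8 lower (median 0.056). Lamtor5, part of the Ragulator platform that recruits mTOR signalling to lysosomes, was at 52.2, 75.6 and 47.1 FPKM in WT and at 41.4, 42.9 and 44.3 in KO. The KO libraries all lay below the WT libraries (difference −0.41, SE 0.22; limma, adjusted p = 1, and adjusted p = 0.69 with the block), whereas Lamtor2 of the same platform differed by 0.23. Igf2r, a receptor that carries enzymes to the lysosome, was at 2.03, 1.88 and 2.43 FPKM in WT and at 3.03, 2.90 and 3.13 in KO, all KO libraries above all WT libraries (difference 0.37, SE 0.24; limma, adjusted p = 1). Of the 151 genes 12 lie on the chromosome of Txnip, 11 of them within 200 tested genes of it in RefSeq order (GRCm38.p6). Among these are the cathepsin gene Ctss at 20 genes, Lamtor5 at 65, Lamtor2 at 109 and Ppp3ca at 156, while 0 of the 35 members lie on that chromosome. The part of this nearness to Txnip in the differences of the 12 genes was not tested. Of 12 other transcription regulators of autophagy, 11 were higher and 1 lower (median 0.14), the 3 of smallest p being Ppp3ca, Foxo3 and Flcn with differences of 0.22, 0.26 and 0.19.

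**Figure D5:**
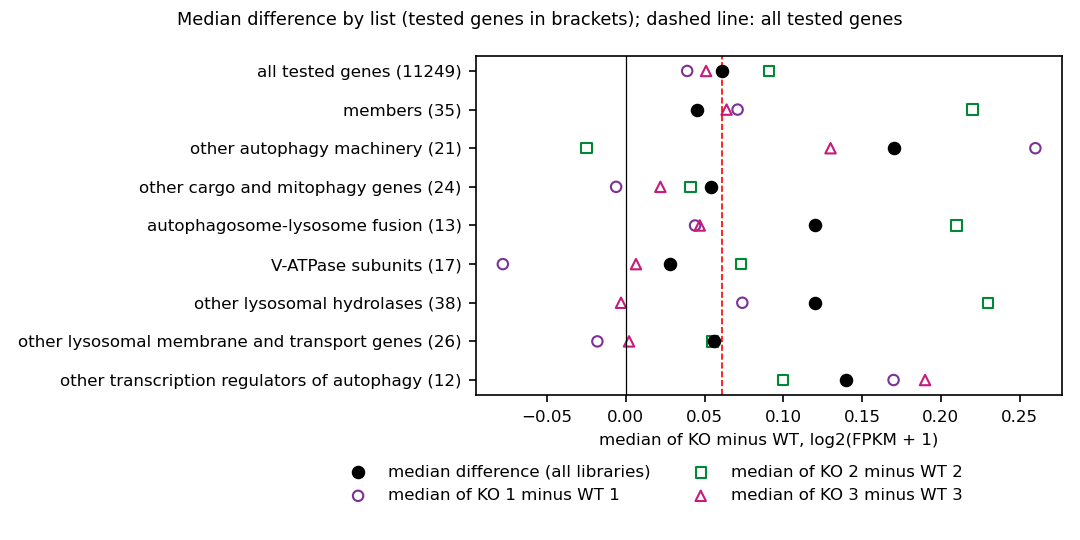
Median of KO minus WT in log2(FPKM + 1) for all tested genes, the 35 members and the 7 other lists, with the number of tested genes in brackets; filled points use all libraries and open symbols the 3 pairs. The filled points lie between 0.028 and 0.17, on both sides of the dashed line at 0.061.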

How the data were processed

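RNA from 6 libraries was analysed from the deposited table. The authors deposited FPKM values per gene symbol and library, with 2 decimals. The submitters' processing notes name FastQC, Trimmomatic 0.39, STAR 2.7.0a, RSEM 1.2.31 and the mouse build mm9; for the role and settings of each tool, and for the annotation, nothing is stated in the labels or headers. RSEM estimates how reads are shared between similar transcripts, so values of close copies depend on each other. Per the file headers, columns carry the sample titles, which gave genotype and replicate number; all 6 columns were used. Depth was estimated from the spacing of low FPKM values of genes with a single transcript (GENCODE M21 lengths, another build than mm9), and changes with the fragment length assumed. No interval for counting error was made from it.

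A gene was tested where 3 or more libraries had 1 FPKM or more (11249 of 24410 symbols, among them all 35 members), with limma 3.58.1 in R 4.3.3 on log2(FPKM + 1), lmFit and eBayes with a trend, two-sided, KO against WT, with Benjamini-Hochberg adjustment over all of them and a threshold of 0.05. The added 1 shrinks the differences of low genes. Intervals are 95% intervals from the moderated test without the block. No test over a list was made; lists are described by counts and medians beside those of all tested genes. The members and lists were chosen with earlier results of these data known.

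For each number, the deviations of the WT and the KO library from their group means correlated over tested genes (r = 0.814, 0.595 and 0.381 for numbers 1 to 3), so the numbers were taken to pair the samples, from the data and not from the labels. Blocked values stand beside those results where they could be read differently. The labels name no separate animals. Library 3 of each genotype differs in sex-linked transcripts from libraries 1 and 2, so more than 1 animal stands behind each genotype; whether libraries 1 and 2 came from separate animals is not given, and p-values measure the spread among these samples, part of which may be technical. Named genes are Txnip, members with an unadjusted p under 0.05 with or without the block, members whose groups do not overlap, the 2 most abundant members of each role, the 3 genes of smallest p in each other list and the most abundant markers; other members are named to account for all 35, and Itga2b was added after its values were seen, to check the sorted marker. Fuca1 and Lgmn were also added after their values were seen. Alternatives, 20 in all, changed the pseudocount, the filter, the scaling, the block, the trend or the libraries.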

Additional observations from a re-analysis of the deposited data

How the results depend on the processing

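Of the 35 genes, 0 passed the test under every alternative that kept all 6 libraries or left out 1. Txnip passed in all 20 alternatives, while Cd1d2 fell short with no filter on low values (limma, adjusted p = 0.0603) and without WT 2, WT 3 or KO 3 (adjusted p = 0.066, 0.0827 and 0.1). Genes higher in KO past the threshold numbered 0 with no filter and 0 to 1 with 1 library left out, and genes lower in KO 1 to 2. With the replicate number as a block, genes past the threshold in KO were 2 higher and 1 lower, again 2 higher after quantile normalization, and 44 higher and 9 lower with a common FPKM sum. The block changed the call of 0 members with all 3 pairs. With the block and only 2 pairs, which leaves 1 residual degree of freedom, the counts over all genes were 9 higher and 27 lower without pair 1, 94 and 48 without pair 2, and 68 and 50 without pair 3. Ctsl was then the 1 member past the threshold without pair 2 (adjusted p = 0.0146) or pair 3 (0.016), as was 1 other pathway gene each time, and 0 of either were without pair 1.

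Scaling set the sign of small differences. A common FPKM sum moved the median to 0.22 for all genes, 0.22 for the members, 0.25 for the other pathway genes and 0.67 for the members in pair 2, and with or without the block it reversed Atg3 (0.034), Atg5 (0.17), Gabarap (0.026), Gabarapl2 (0.12) and Bnip3l (0.12). A sum that leaves out Rpph1, Rmrp and ribosomal protein genes gave 0.13 for all genes, 0.16 for the other pathway genes and 0.32 for pair 2, and reversed Atg5 (0.069), Gabarapl2 (0.019) and Bnip3l (0.019). Quantile normalization gave 0.0077 for all genes and 0.037 for the other pathway genes, and with or without the block it reversed Ulk2 (−0.054), Rb1cc1 (−0.042), Atg13 (−0.053), Pik3c3 (−0.049), Pik3r4 (−0.074), Atg9a (−0.039) and Map1lc3a (−0.096). With 1 library, or 1 pair in the blocked fit, left out, 18 to 27 members were higher in KO, and the medians ran from 0.037 to 0.14 for the members, 0.0075 to 0.13 for all genes and 0.023 to 0.15 for the other pathway genes. The sign then turned for these members, given with their lowest and highest difference: Ulk1 (−0.21 to 0.36), Ulk2 (−0.048 to 0.12), Rb1cc1 (−0.12 to 0.25), Atg13 (−0.27 to 0.33), Pik3c3 (−0.12 to 0.11), Pik3r4 (−0.20 to 0.16), Atg9a (−0.26 to 0.25), Atg3 (−0.24 to 0.053), Atg4b (−0.085 to 0.18), Atg5 (−0.16 to 0.17), Atg12 (−0.13 to 0.19), Map1lc3a (−0.19 to 0.33), Map1lc3b (−0.15 to 0.30), Gabarap (−0.30 to 0.021), Gabarapl1 (−0.26 to 0.23), Gabarapl2 (−0.21 to 0.11), Sqstm1 (−0.078 to 0.51), Nbr1 (−0.11 to 0.31), Pink1 (−0.34 to 0.41), Bnip3l (−0.26 to 0.22), Fundc1 (−0.56 to 0.16), Tfe3 (−0.29 to 0.44), Lamp1 (−0.045 to 0.11), Lamp2 (−0.46 to 0.019), Ctsb (−0.026 to 0.52) and Ctsd (−0.18 to 0.11). The cause of these changes was not tested. Becn1, Uvrag, Wipi1, Wipi2, Atg7, Atg16l1, Optn, Tfeb and Ctsl kept their sign in all 20 alternatives. The depth, about 14400000 to 25800000 fragments by an estimate that was weakest for KO 2, does not set a counting limit that could be given per gene. With 3 libraries a genotype, the median 95% interval of a member reached 0.58 to either side in the fit without the block; with the block the standard errors were smaller, at 0.14 to 0.23.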
